A study of Rattus norvegicus with 18 samples.

Results

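The genes described here are Cd72, Cd79b, Ighvl1, and Il2rb, a group labelled as lymphocyte genes that return after fracture. Every probe set annotated to these symbols was taken, which gave 4 of the 4736 genes named on the array and 5 of its 8799 probe sets, because Ighvl1 has 2. They were selected on their fall and return over time in these same arrays, so their values over time are given as a description without a test. The comparisons between ages were tested.

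Rat Affymetrix arrays measured mRNA in the middle of the femur, in a segment that held the callus, cortical bone, and marrow. The animals were female Sprague-Dawley rats, and were 6 weeks old (young), 26 weeks old (adult), or 52 weeks old (older) when fractured. The fractured femora had a rod in the marrow cavity. Femora were collected 3 days or 1, 2, 4, or 6 weeks after the fracture, or with no fracture. The no fracture rats were sham controls drawn from those due for surgery, and whether they received a rod was not stated. The mRNA of 2 rats went onto each of 18 arrays, 1 for each age and time, so that the 3 ages served as the replicates of a time and the 5 times after fracture as the replicates of an age.

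B lymphocytes are made in the marrow from progenitors that rearrange their immunoglobulin genes, and later some of them become plasma cells that secrete antibody. The B cell receptor is a membrane immunoglobulin that signals through the paired proteins Cd79a and Cd79b, while Cd72 is an inhibitory surface receptor of B cells. T cells and natural killer cells use Il2rb, a chain of the receptors for interleukin-2 and interleukin-15. In a bulk tissue sample, fewer cells of a type, a smaller share of them among other cells, and less mRNA per cell cannot be told apart.

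The 3 B lineage genes were low in the femur at 3 days and 1 week, stayed low in adult and older rats at 2 weeks, and at 4 weeks were above their 2 week signals at all ages and overlapped those without fracture. Il2rb followed another course. It was low at 3 days at all ages, and from 1 week on its signals overlapped those without fracture, although the adult rats were still low at 1 and 2 weeks. Expression is given as signal, an intensity in arbitrary units that was scaled to the same average on every array. Signals of different probe sets are not comparable as levels. For fold changes, signals under 100 were set to that floor, so folds that involve low signals are understated.

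Cd72 had signals of 931.7 without fracture, 96.1 at 3 days, 156.3 at 1 week, 469.5 at 2 weeks, 2105.5 at 4 weeks, and 2121.7 at 6 weeks in young rats. In adult rats the signals at the same times were 573.8, 83.2, 99.5, 147.4, 896.9, and 1119.4. In older rats they were 1268.5, 65.1, 79.4, 110.4, 706.3, and 1083.9. All arrays at 3 days, 1 week, and 2 weeks were therefore below all arrays without fracture, and the arrays at 4 and 6 weeks overlapped them. The mean was 81.5 ± 15.6 at 3 days, against 925 ± 347 without fracture (SD, n = 3 each), a log2 change of -3.14. At 6 weeks the mean was 1442 ± 589 (SD, n = 3), with a log2 change of 0.64 from no fracture.

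The return of Cd72 was set against the no fracture array of the same age. The mean of 4 and 6 weeks was 2.27 times that array in young rats and 1.76 times in adult rats, and 0.706 times in older rats. Both late arrays of the older rats thus stayed under their no fracture array, which had the highest of the 3 no fracture signals, while both late arrays of the young and of the adult rats exceeded theirs. The other B lineage members did not share this in older rats. Their late mean was 1.40 times no fracture for Cd79b, and 1.22 and 1.63 times for Ighvl1 rc_AA801174_at and X68782cds_at.

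Cd79b, the signalling partner of membrane immunoglobulin, had signals of 491.3 without fracture, then 132.2, 39.5, 350.3, 754.8, and 732.6 in young rats over the 5 times after fracture. Adult rats had 280.8, 110.6, 54.5, 52.6, 593.7, and 608.5, and older rats had 303.2, 17.8, 27.5, 121.3, 435.2, and 413.4. All ages were low at 1 week, adult rats remained below the floor at 2 weeks, and all ages were higher at 4 weeks than at 2 weeks. The mean was 40.5 ± 13.5 at 1 week, against 358 ± 116 without fracture (SD, n = 3 each), and all 3 arrays at 1 week were below the floor. At 4 weeks it was 595 ± 160 (SD, n = 3), a log2 change of 0.74 from no fracture, with 1 array inside the no fracture range and the others above it.

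Ighvl1, an immunoglobulin heavy chain variable gene, was measured by the probe sets rc_AA801174_at and X68782cds_at. Variable segments resemble one another closely, so these probe sets may also record other segments. On rc_AA801174_at the young rats had 2451.4 without fracture, then 70.6, 72.6, 837.4, 3427.1, and 3183.4 from 3 days to 6 weeks. The adult rats had 273.2, then 33.8, 62.4, 56.1, 2034.6, and 2389.3. The older rats had 1515.1, then 23.3, 40.6, 69.5, 1690.5, and 2001.7. All arrays at 3 days and 1 week, as well as the adult and older arrays at 2 weeks, lay below the floor. The log2 change from no fracture was -3.33 at both 3 days and 1 week, -2.31 at 2 weeks, 1.18 at 4 weeks, and 1.30 at 6 weeks.

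The adult rats without fracture had a low signal on both Ighvl1 probe sets. Their signal on X68782cds_at was 278.8, against 1075.6 in young and 672.9 in older rats. As a result, the mean of 4 and 6 weeks on rc_AA801174_at was 8.10 times the no fracture signal in adult rats, but 1.35 times in young and 1.22 times in older rats. Without the adult no fracture array, the log2 change at 4 weeks was 0.24 on rc_AA801174_at and 0.48 on X68782cds_at, against 1.18 and 1.01 with it. At 6 weeks it was 0.36 and -0.03, against 1.30 and 0.51 with it, so the sign turned on X68782cds_at. The change of rc_AA801174_at at 3 days and 1 week was -4.27 without that array.

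X68782cds_at was also low at 3 days and 1 week and high at 4 weeks. In young rats it had 1075.6 without fracture, then 172.0, 180.2, 399.1, 1402.9, and 740.4. The adult rats had 278.8, then 117.3, 170.5, 141, 1183.1, and 653.3, and the older rats had 672.9, then 104.2, 44.9, 186.4, 998.3, and 1195.7. At 6 weeks it differed from the other B lineage probe sets in that the older rats had the highest signal. Its log2 changes from no fracture were -2.19, -2.01, -1.42, 1.01, and 0.51 from 3 days to 6 weeks.

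Il2rb, measured by M55050_at, had signals of 231.7 without fracture, then 69.7, 225.3, 279.6, 312.2, and 492.2 in young rats. Adult rats had 355.6, then 105.1, 176.1, 210.5, 401, and 234.6, and older rats had 278.5, then 89.7, 260.7, 349.4, 411.8, and 260.2. The log2 change from no fracture was -1.48 at 3 days, -0.38 at 1 week, and -0.05 at 2 weeks. From 1 week on, the arrays overlapped the no fracture arrays at every time, but the ages differed. In adult rats the signal was 0.495 of their no fracture signal at 1 week and 0.592 at 2 weeks, below all 3 no fracture arrays. It was 1.13 times that signal at 4 weeks, and at 6 weeks again lower at 0.660, inside the range of the no fracture arrays. In young and older rats the signal from 1 week on was near or above that of the same age.

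**Figure D1:**
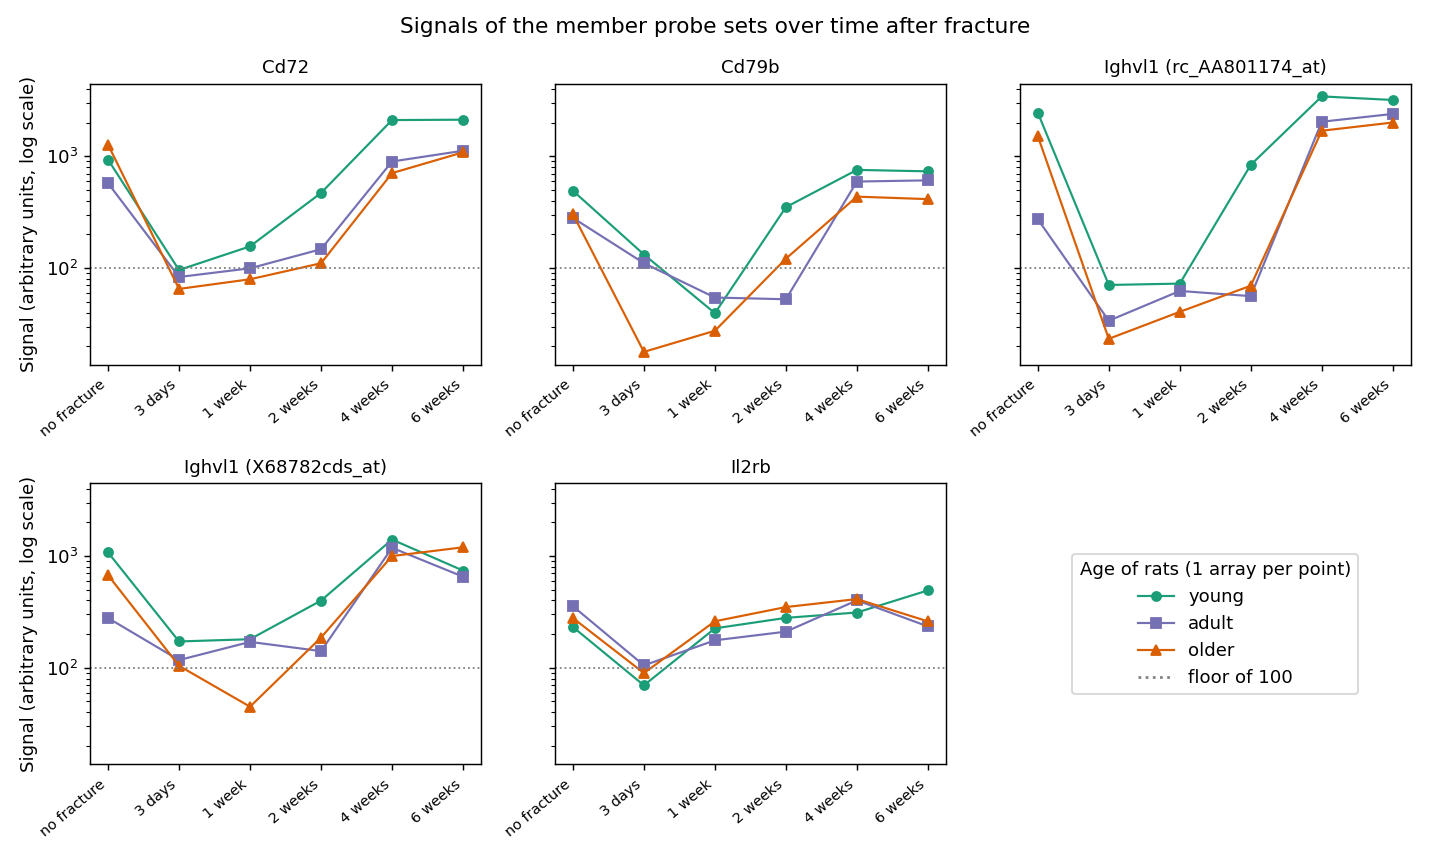
Signal of each probe set (arbitrary units, log scale) at each time in young, adult, and older rats, 1 array per point, with the floor of 100 as a dotted line. The 4 probe sets of Cd72, Cd79b, and Ighvl1 stay low through 1 week and are high again at 4 weeks, whereas Il2rb is low at all ages at 3 days only, and in adult rats also at 1 and 2 weeks.

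The timing of the return separated Il2rb from the B lineage genes. All 5 probe sets had their 3 arrays at 3 days below all 3 arrays without fracture, as did 22.7% of the 4669 probe sets tested. For Il2rb the step up came between 3 days and 1 week, where all 3 later arrays exceeded all 3 earlier ones. It was the 1 probe set of 5 with this pattern, which was seen in 14.6% of all tested. The 4 probe sets of Cd72, Cd79b, and Ighvl1 had it between 2 and 4 weeks, a pattern of 7.07% of all tested. All other neighbouring times after 3 days overlapped for all 5 probe sets. None of the 5 exceeded no fracture without overlap at 4 or 6 weeks, which 12.5% and 9.55% of all probe sets did. These percentages are printed as background only, since the same time course chose the genes.

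The 4 probe sets of the B lineage genes followed each other over the 18 arrays, with Pearson r between 0.93 and 0.97 and Spearman rho between 0.85 and 0.95. All were chosen for their time course. After subtracting the mean of each time, which leaves the differences between ages, r was 0.57 to 0.84. Il2rb had r of 0.60 to 0.66 with these probe sets, and after subtracting the time means r ran between -0.33 and 0.04. The correlations are descriptions over arrays that share their scaling and their time course.

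The probe sets most like Cd72 over the 18 arrays were Ppp1r16b, a regulatory subunit of protein phosphatase 1 (r = 0.97), Ighvl1 rc_AA801174_at (r = 0.97), and Iglc1, an immunoglobulin lambda constant gene (r = 0.96). Those most like Cd79b were the Ighvl1 probe sets (r = 0.97 and 0.94) and Cd72 (r = 0.96). The course of Ighvl1 X68782cds_at was closest to Cd79b (r = 0.94), Cd72 (r = 0.93), and Cd37, a tetraspanin of B cells (r = 0.92), and that of rc_AA801174_at to Cd79b, Cd72, and Iglc1 (r = 0.97, 0.97, and 0.95). No lymphocyte gene was among the closest to Il2rb. These were Hcrtr1, an orexin receptor (r = 0.93), Gabrr1, a GABA receptor subunit (r = 0.89), and Or1ad6, an olfactory receptor (r = 0.85).

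Several of the markers that define T and natural killer cells were low on these arrays. Cd3d and Cd247, which are parts of the T cell receptor complex, did not exceed 90.7 and 84.0 on any of the 18 arrays, and Prf1, the pore-forming protein of killer cells, did not exceed 12.9. All 3 were thus below the floor throughout. Cd3g passed the filter on low signals with its probe set S79711_at, which had 49.1 to 244.8 over the 18 arrays. Lck, the kinase of T cell receptor signalling, had 284.6 to 977.2 and did not share the fall of Il2rb at 3 days, with a log2 change of -0.07 ± 0.25 (SE; limma adjusted p = 0.84). Cd3g, a further part of the T cell receptor complex, had 66.2, 67.4, and 49.1 at 3 days in young, adult, and older rats, against 155.7, 128.2, and 114.7 without fracture. On this probe set the arrays at 3 days thus all lay below the no fracture arrays, as for Il2rb and 22.7% of all probe sets tested. The other Cd3g probe set, S79711_g_at, had 36.3, 31.7, and 23.7 at 3 days, against 87.2, 19.4, and 52.8 without fracture. Those signals overlapped and were all below the floor. With the 3 day signals set to the floor, the log2 change of S79711_at was -0.40 ± 0.24 (limma adjusted p = 0.183). Klrk1, an activating receptor of natural killer cells and some T cells, had 91, 75.9, and 88.9 at 3 days, against 121.1, 193.4, and 158.9 without fracture, again without overlap, and its log2 change was -0.63 ± 0.30 (limma adjusted p = 0.0973). These 2 genes were described after their values were seen. Cd3d, Cd247, and Prf1 thus gave no measure of T or natural killer cells above the floor. Cd3g (S79711_at) and Klrk1 were low at 3 days without passing the test, and Lck did not follow Il2rb. Lat, of T cell receptor signalling, fell then (-1.10 ± 0.26, limma adjusted p = 0.00299) and did not pass from 1 week on. Cd4 and Ctla4 did not pass at 3 days (-0.26 ± 0.33 and -0.25 ± 0.26). Of the 9 T and natural killer cell list genes tested, 2 rose and 2 fell at 3 days, beside 24.5% and 19.7% of all probe sets.

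Ages were compared over the 5 times after fracture. Mean log2 signals of the 3 B lineage genes were lower in older than in young rats, but none of the 5 probe sets passed the test by limma. An unadjusted p under 0.05 was found for 3. Here and in the comparisons below, the share of all probe sets under that unadjusted threshold is not given, so such counts have no background. Cd72, the inhibitory receptor, had the widest gap. It had signals of 65.1, 79.4, 110.4, 706.3, and 1083.9 from 3 days to 6 weeks in older rats, against 96.1, 156.3, 469.5, 2105.5, and 2121.7 in young rats. The log2 difference was -1.06 ± 0.24 (SE, n = 5 arrays per age), or 2.08-fold lower, with a 95% confidence interval of -1.58 to -0.54 and limma adjusted p = 0.0575. Over all 4669 probe sets, 0.15% were called in this comparison. Cd72 passed the threshold under 4 of 24 alternatives. These were a floor of 20 (limma adjusted p = 0.0384), equal array medians (0.0467), and leaving out the young or the older array at 3 days (0.0165 and 0.0111). Under the others it did not pass, with limma adjusted p up to 0.738. Among those were a floor of 200 (0.113) and no filter (0.241).

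Cd79b differed by -0.71 ± 0.24 between older and young rats (adjusted p = 0.116), and Ighvl1 rc_AA801174_at by -0.95 ± 0.37 (adjusted p = 0.169; limma, log2 ± SE). The signals of both were lower in older rats at 5 of 5 times, as were those of Cd72, a pattern of 3 of the 5 probe sets and of 6.51% of all tested. Some of these orders lie among signals below the floor at both ages, which the test treats as equal. With the floor applied, older rats were lower at 4 times for Cd72, 4 for Cd79b, and 3 for rc_AA801174_at. Without the young 2 week array the difference was -0.83 ± 0.22 for Cd72, -0.45 ± 0.20 for Cd79b, and -0.41 ± 0.19 for rc_AA801174_at. X68782cds_at differed by -0.49 ± 0.25 (adjusted p = 0.285) and was lower at 4 of 5 times. Il2rb differed by 0.00 ± 0.22 (adjusted p = 0.996), with an interval of -0.46 to 0.46.

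The differences between adult and young rats were negative as well. The log2 difference was -0.89 ± 0.24 for Cd72 (limma adjusted p = 0.182), -0.54 ± 0.24 for Cd79b, -0.85 ± 0.37 and -0.51 ± 0.25 for Ighvl1, and -0.28 ± 0.22 for Il2rb. Without the young 2 week array the differences were -0.67 for Cd72, -0.27 for Cd79b, -0.30 and -0.31 for Ighvl1, and -0.30 for Il2rb. None was called by limma, and 0% of all probe sets were, while 3 of the 5 had an unadjusted p under 0.05. Older and adult rats were closer, with differences between -0.17 and 0.28 and limma adjusted p of 0.432 or more for the 5 probe sets, of which 0 had an unadjusted p under 0.05. Here 3.73% of all probe sets were called.

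**Figure D2:**
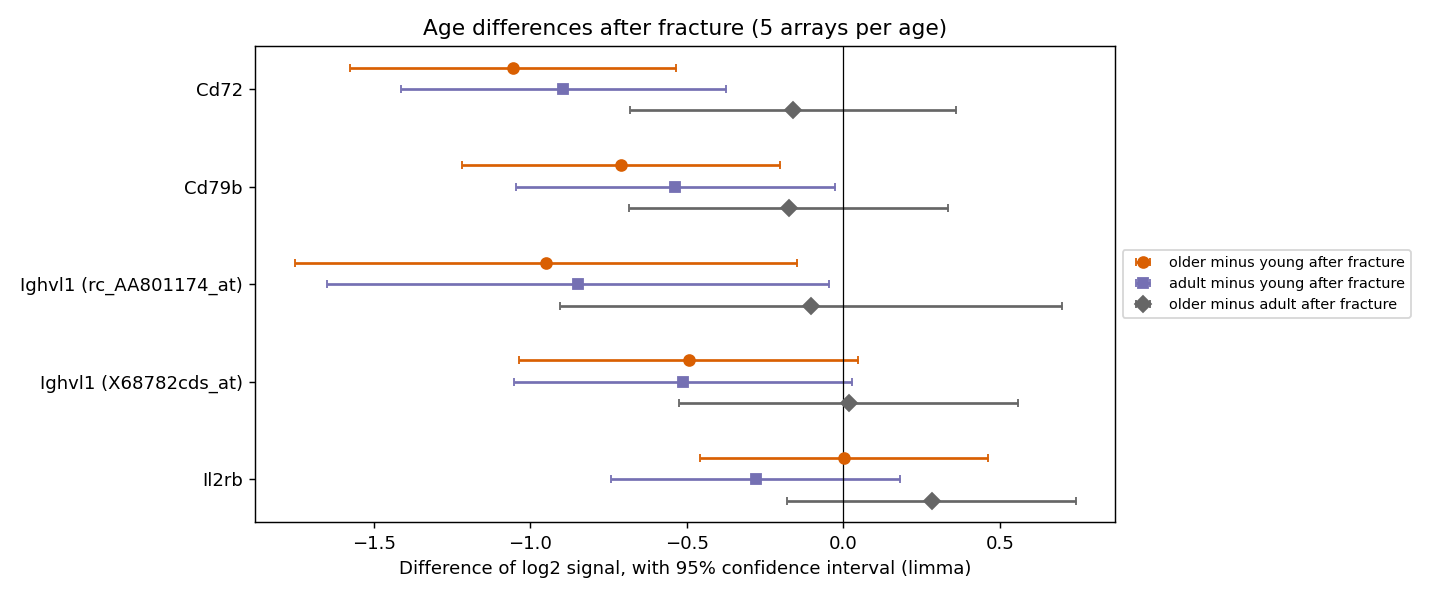
Difference of log2 signal between ages over the 5 times after fracture for each probe set, with 95% confidence intervals from limma. The older minus young and adult minus young differences of Cd72 lie near -1, and those of older minus adult lie around 0.

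At 4 and 6 weeks together, older rats differed from young rats by -1.27 ± 0.41 in Cd72 (adjusted p = 0.108), -0.81 ± 0.38 in Cd79b (adjusted p = 0.249), and -0.84 ± 0.63 in Ighvl1 rc_AA801174_at (adjusted p = 0.468; limma, log2 ± SE). The values were 0.10 ± 0.37 for X68782cds_at and -0.26 ± 0.35 for Il2rb. No probe set of the 5 was called, beside 1.91% of all tested, and 1 had an unadjusted p under 0.05. Without the young 2 week array, Cd72 was called at -1.27 ± 0.28 with limma adjusted p = 0.0399. That was the 1 call in 22 alternatives, and the others gave limma adjusted p up to 0.400. Whether the age difference itself changed between the 3 earlier times and the 2 later times was tested as an interaction. It was not called for any of the 5 (0 with an unadjusted p under 0.05), beside 0.0214% of all probe sets. The largest was 0.99 ± 0.48 for X68782cds_at (limma adjusted p = 0.526). On simulated data this test recovered 6% of log2 changes of 1 and 48% of log2 changes of 2, so it could miss most differences of such a size.

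The young rats at 2 weeks stood apart from the adult and older rats in the B lineage genes. Their signal, with the floor applied, was 3.19 times the higher of the other ages for Cd72, 2.89 times for Cd79b, and 8.37 and 2.14 times for the Ighvl1 probe sets, while it was 0.80 times for Il2rb. With 1 array per age this has no test. A ratio of 2 or more was found in 2.23% of all probe sets at 2 weeks. At 4 weeks it held for Cd72 alone among the 5 (2.35 times, against 1.16% of all), and at 3 days, 1 week, and 6 weeks for none (1.24%, 2.06%, and 1.63% of all).

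Genes of other marrow cells were high on the same array. At 2 weeks a ratio of 2 or more was found in 9 of the 10 erythroid genes tested (median 3.76), in 4 of 7 neutrophil genes (median 6.12), and in 4 of 13 proliferation genes. It was found in 2 of 8 other B lineage genes and in 0 of 9 T and natural killer cell genes. The macrophage, muscle, and MHC class II lists had 0 of 6, 0 of 17, and 0 of 8. The neutrophil excess of young rats was not particular to 2 weeks, since it was also found in 6 of 7 genes at 3 days (median 4.46) and in 6 of 7 at 4 weeks (median 2.39), whereas that of the erythroid genes was found in 2 of 10 and 0 of 10 at those times. The part of these cells in the young 2 week values was not tested.

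Other lymphocyte genes came from lists for B lineage cells, for T and natural killer cells, and for immunoglobulin genes. These lists named 59 genes on the array besides the members, and 18 passed the filter on low signals (3 or more arrays at 200 or above). Of the 41 that did not, 23 were below the floor on all arrays. Among the 18, the genes that rose and fell against no fracture numbered 3 and 7 at 3 days, 4 and 6 at 1 week, and 3 and 4 at 2 weeks. At 4 and at 6 weeks 2 rose and 0 fell by limma. At an unadjusted p under 0.05 the counts were 8 higher and 0 lower at 4 weeks and 7 higher and 0 lower at 6 weeks. The share of all probe sets under the unadjusted threshold is not given, so these last counts have no background. Their median log2 change was -0.33, -0.11, -0.18, 0.49, and 0.61 from 3 days to 6 weeks. Over all 4669 probe sets the median was 0.01, 0.01, -0.00, 0.04, and 0.05.

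The share of all probe sets called higher was 24.5% at 3 days, 14.3% at 1 week, 12.8% at 2 weeks, 5.05% at 4 weeks, and 3.19% at 6 weeks, and the share called lower was 19.7%, 10.5%, 8.27%, 1.43%, and 1.2%. Age was a term of the model, so constant differences between ages were removed. Because each time has a single array per age, the p-values over time rest on how much the time course varied between ages. They do not measure how much rats of 1 age differ.

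Within the B lineage list, 4 of 8 genes fell at 3 days, 4 at 1 week, and 3 at 2 weeks, and none at 4 or 6 weeks. Syk, a kinase of B cell receptor signalling that other blood cells also use, fell at 3 days (-1.74 ± 0.32, adjusted p = 0.000533), 1 week (-1.70 ± 0.32), and 2 weeks (-1.49 ± 0.32; limma, log2 ± SE). Cd37 fell by 1.40, 1.53, and 1.47 on the log2 scale at these times. Igll1, a surrogate light chain of B cell precursors, fell by 1.46 at 3 days, 1.15 at 1 week, and 0.68 at 2 weeks. Cd24, found on B cell precursors and on several other cells, fell by 1.30 at 3 days and 1.35 at 1 week. Iglc1, the immunoglobulin gene tested by itself, fell by 1.61, 1.61, and 1.28 at 3 days, 1 week, and 2 weeks (adjusted p = 0.00501, 0.00863, and 0.035), and was not called at 4 or 6 weeks.

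The other 7 immunoglobulin probe sets were each annotated to 2 kappa light chain genes and are given without a gene name. All 7 fell at 3 days, with log2 changes of -4.27 to -2.80 (limma adjusted p of 0.000178 or less), and all 7 fell at 1 week (-3.76 to -2.62) and at 2 weeks (-2.90 to -1.96). None was called at 4 weeks (-0.30 to 0.11) or 6 weeks (0.53 to 0.77). Their median signal in older rats was 160.7 at 2 weeks, against 5035 without fracture, and 909.9 and 2162.3 at 4 and 6 weeks. In young rats it was 299.2 at 2 weeks, against 640.7 without fracture, and 1850.4 and 2496.7 at 4 and 6 weeks. The late kappa medians thus exceeded the no fracture array in young rats and stayed under it in older rats. This was the arrangement of Cd72 but not of Cd79b or Ighvl1, and these probe sets share sequence and are not independent. The older no fracture array also had the highest no fracture sums of the neutrophil list (89334.3, against 50105.1 in young and 45007.9 in adult rats) and of the genes shared by leukocytes (14271.6, against 7788.8 and 3879.6). Its part in these ratios was not tested.

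Not all genes on the lists fell. Sdc1, a syndecan of plasma cells that epithelial and skeletal cells also carry, rose at all 5 times, with log2 changes of 2.37, 2.27, 2.52, 2.15, and 1.86 (limma adjusted p = 1.64e-05 at 3 days and 0.00162 at 6 weeks). Fcer2, a low-affinity IgE receptor of B cells and other cells, rose by 0.89 ± 0.28 at 1 week (adjusted p = 0.0318). In the T and natural killer cell list, Thy1, which fibroblasts and mesenchymal cells also express, rose at all 5 times, by 2.55 ± 0.34 at 3 days and 1.43 ± 0.34 at 6 weeks. Fyn, a kinase found in many cell types, rose at 3 days, 1 week, and 2 weeks (1.04, 1.27, and 1.39). Spn, a sialoglycoprotein of most leukocytes, changed by -1.64 at 3 days and -1.62 at 1 week. The ages were unequal in this, since its no fracture signal was 1479.9 in older rats, against 308.5 in young and 165.4 in adult rats. At 3 days the signal was 83.4 in older, 251.3 in young, and 81.7 in adult rats. Lat, an adaptor of T cell receptor signalling, fell by 1.10 at 3 days. No gene of these lists was called by limma in any age comparison. At an unadjusted p under 0.05 there were 3 of 18 for older minus young after fracture and 4 for adult minus young. There was 1 for older minus adult, and there were 5 for older minus young at 4 and 6 weeks. These unadjusted counts also have no share of all probe sets beside them.

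**Figure D3:**
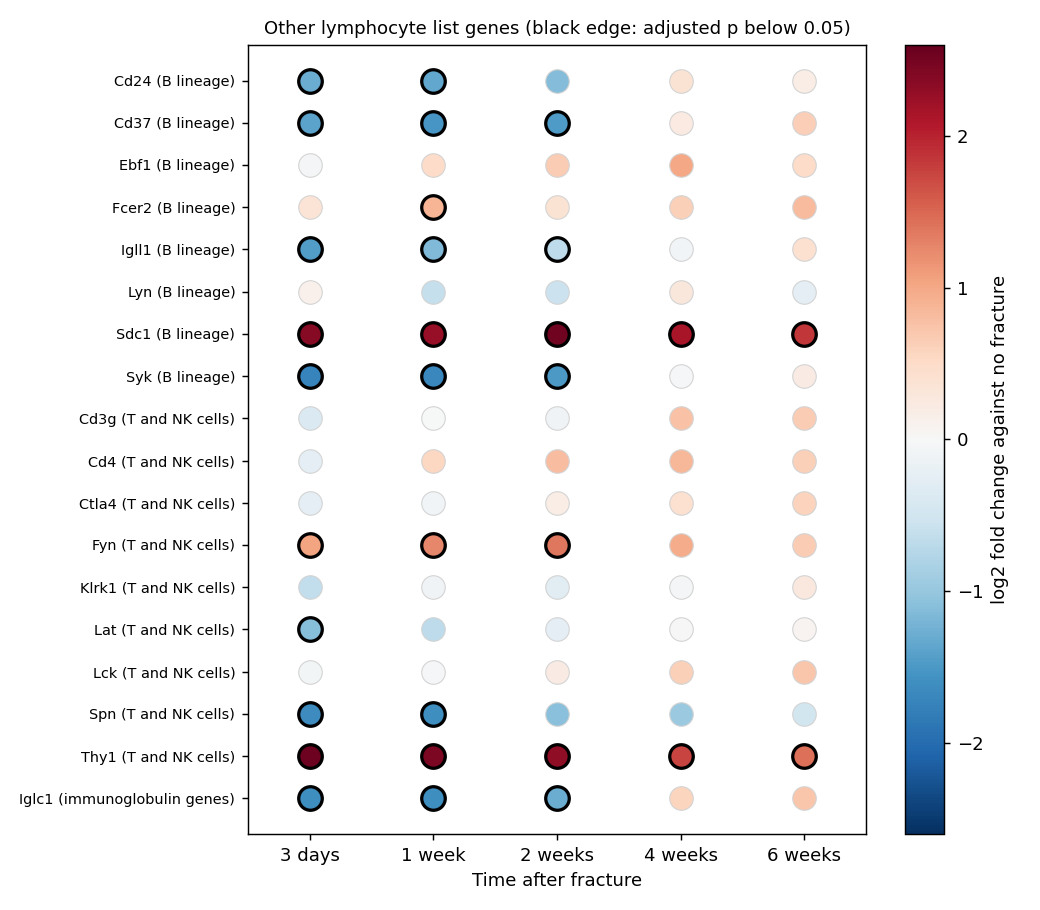
Log2 fold change against no fracture for the 18 lymphocyte list genes tested, by time after fracture, with a black edge where the limma adjusted p was below 0.05. Syk, Cd37, Igll1, and Iglc1 were lower through 2 weeks and not called afterwards, while Sdc1 and Thy1 rose at all 5 times.

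Neutrophil and erythroid markers fell at the times when the B lineage genes were low. They rose again later, but in adult and older rats their sums had not reached no fracture at 6 weeks. The summed signal of the 8 neutrophil genes was 1556 to 17145 at 3 days, against 45008 to 89334 without fracture, and it was 12355 to 32280 at 4 weeks and 16426 to 62631 at 6 weeks. Of the 7 tested, 6 fell at 3 days, 1 week, and 2 weeks, 3 at 4 weeks, and 0 at 6 weeks. The summed erythroid signal was 8687 to 19278 at 3 days and 60711 to 68400 at 4 weeks, against 83245 to 120393 without fracture, and all 10 genes fell at 3 days, 1 week, and 2 weeks. Of these genes, 1 was called lower at 4 weeks and 2 at 6 weeks. In older rats at 6 weeks the erythroid sum was 44534.5, against 120393 without fracture, and the neutrophil sum was 16425.6, against 89334.3. In young rats both sums exceeded no fracture at 6 weeks. At 4 weeks both sums were still below no fracture on all 3 arrays, whereas the B lineage probe sets overlapped it. The 8 macrophage genes summed to 7406 to 15351 after fracture, against 10099 to 21828 without fracture. Of the 13 proliferation genes tested, 1 fell at 3 days, 10 at 1 week, 8 at 2 weeks, and 0 at 4 and 6 weeks. Among 10 surface genes shared by leukocytes, 6 fell at 3 days and 1 week, 4 at 2 weeks, and 0 at 4 and 6 weeks. The part of these cells in the fall and return of the B lineage genes was not tested.

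At 4 and 6 weeks the lists differed in where they stood. The summed mast cell signal was 5533 to 8000 at 4 weeks and 4565 to 7560 at 6 weeks, against 2057 to 4200 without fracture. Earlier it was below all no fracture arrays, at 778 to 1125 at 3 days and 1044 to 1398 at 1 week. At 2 weeks it was 1330.5 in adult and 1430.7 in older rats, but 4303.6 in young rats. The mast cell sum was thus low at 3 days and 1 week, as the B lineage genes were. Of the 6 mast cell genes tested, 1 fell at 3 days and 1 at 1 week. The MHC class II genes, which present antigen and are expressed by B cells, macrophages, and dendritic cells, summed to 14687 to 19421 at 4 weeks and 17230 to 19232 at 6 weeks, against 6810 to 11779 without fracture. Of the 8 MHC class II genes tested, 3 rose at 3 days and at 1 week, and 4 rose at 2, 4, and 6 weeks, while 1 fell at 3 days. Their sum was thus not low while the B lineage genes were.

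**Figure D4:**
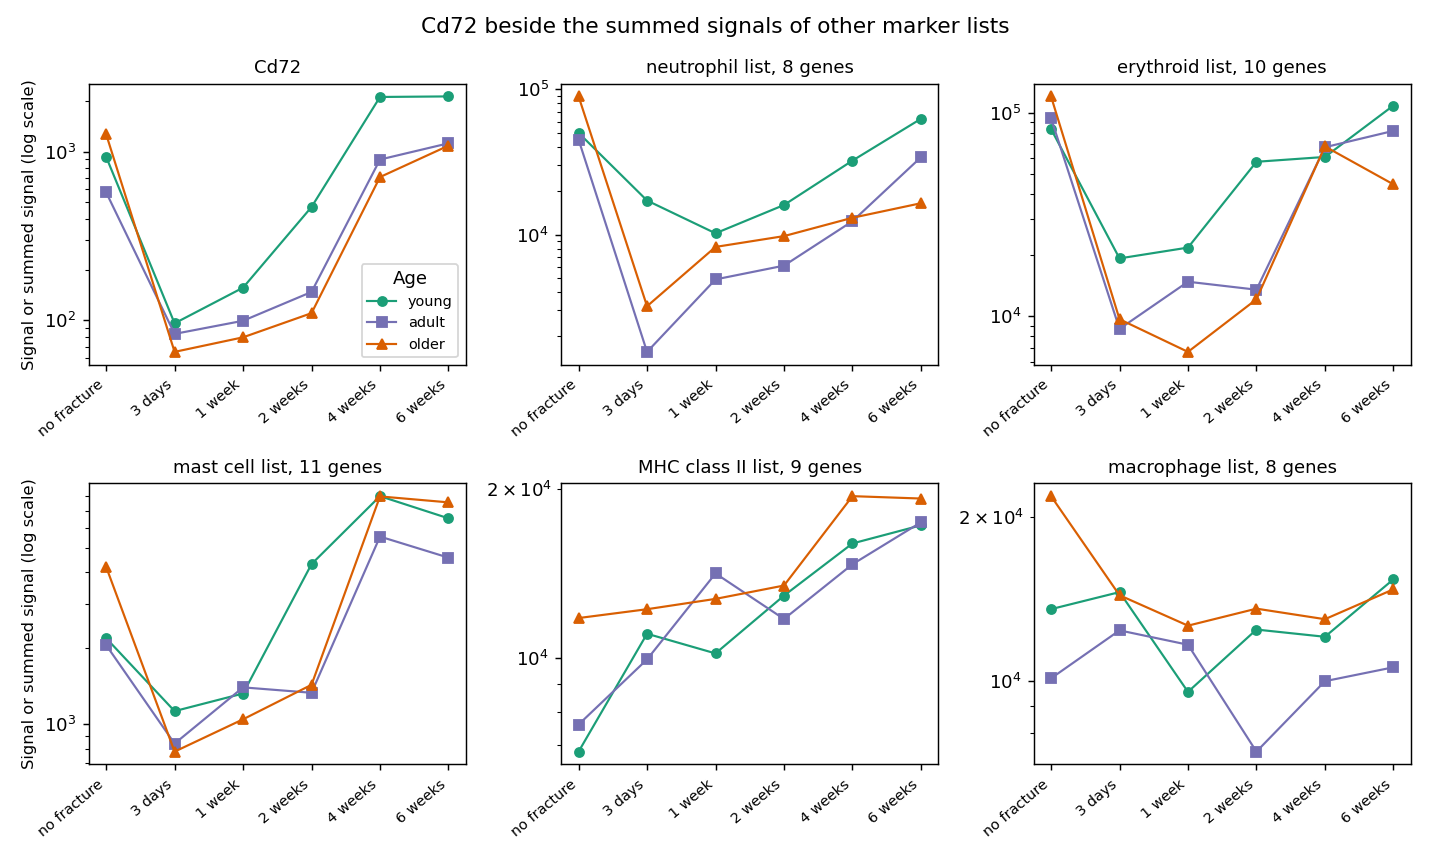
Signal of Cd72 and summed signals of the neutrophil, erythroid, mast cell, MHC class II, and macrophage lists (log scale) at each time in young, adult, and older rats, 1 array per point. Neutrophil and erythroid sums fall with Cd72, but at 4 weeks they are still below no fracture on all arrays, while Cd72 overlaps it. The mast cell sum is also low at 3 days and 1 week, and at 4 weeks it is above no fracture. The young array at 2 weeks is high in the erythroid and mast cell panels, and MHC class II does not fall.

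Median signals were 137.2 to 182.6, and 37.2% to 43.3% of the signals of an array were below the floor. The older arrays at 1, 2, 4, and 6 weeks had medians of 158.9 to 182.6 with 37.2% to 40.2% below the floor, against 140.5 to 157.1 and 40.4% to 43.2% on the young and adult arrays after fracture. The part of this difference in the age comparisons was not tested beyond the alternative with equal medians, under which Cd72 was called for older minus young. Gapdh, a control with probe sets along its mRNA, had a 5′ over 3′ ratio of 0.257 on the young 6 week array and 0.650 to 0.913 on the others, so the young 6 week values come from the array with the least 5′ signal. With 1 array for each age and time, no value has a replicate of the same age and time.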

How the data were processed

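The authors hybridized RNA pooled from 2 rats to each array, and deposited the signal of Microarray Suite 5.0, an intensity that they scaled to an average of 500 per array. Detection calls were not used here, nor were the other series of arrays. The trimmed mean was 500.6 to 500.9 on the 18 arrays. Genes were named from the platform's annotation, with 1 symbol for 7018 probe sets, several for 308, and none for 1473. A floor of 100 was applied and log2 taken. Leaving aside 59 controls, the test covered the 4669 probe sets that reached 200 on 3 arrays or more, with limma 3.58.1 in R 4.3.3 (trend, two-sided, Benjamini-Hochberg over all tested, threshold 0.05). Times were compared on 18 arrays with age as a term, and ages with time as a term on the 15 fracture arrays. The comparison of the late times added age by period, with 6 residual degrees of freedom before moderation.

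The members and the lists were chosen with earlier results of these data known. Named were all members, up to 3 called genes per lymphocyte list, time, and direction, and the 3 most alike genes per member probe set. On simulated data, limma recovered 73% of log2 changes of 1 and 98% of log2 changes of 2 for older minus young after fracture, and 23% and 84% for 4 and 6 weeks. Alternatives were other floors, filters, and scalings, robust moderation, other model terms, the methods' ordinary two-sample test, and leaving out each array. Figures were drawn with matplotlib 3.10.9 in Python 3.11.15.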

Additional observations from a re-analysis of the deposited data

Results flagged for a closer look

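Cd72 moved in opposite directions in different ages relative to no fracture. Its mean signal at 4 and 6 weeks was 2.27 times that of the no fracture array in young rats and 1.76 times in adult rats, with both late arrays higher, but 0.706 times in older rats, with both late arrays lower. Each ratio rests on 1 no fracture array, and this difference was not tested. The gene was chosen on its time course.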

How the results depend on the processing

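Leaving out 1 array at a time gave 0 to 1 called member for older minus young after fracture and 0 to 1 at 4 and 6 weeks; it gave 6 to 10 lymphocyte list genes at 1 week (6 without the older no fracture array) and 1 to 2 at 6 weeks (1 without the adult or older array at no fracture or at 6 weeks). A floor of 20 or equal array medians called 1 member, Cd72, for older minus young. For the list genes, the count was 1 at 4 and 1 at 6 weeks without a filter. With only the 6 arrays of the 2 times it was 3 at 2 weeks and 0 at 4 and 6 weeks. The ordinary two-sample test with Benjamini-Hochberg adjustment called 4 at 3 days and 0 at 1, 2, 4, and 6 weeks. The causes were not tested, and a filter of 500 left no value for Il2rb.

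Uncalled differences near 0 changed sign. With a floor of 20, X68782cds_at was -0.21 for older minus adult and Cd79b 0.78 for the change of the age difference between late and earlier times; with a floor of 200, rc_AA801174_at was -0.16 for that change. Quantile normalization gave -0.079 for Il2rb (older minus young) and -0.060 for X68782cds_at (older minus adult). Equal medians gave -0.14 for Il2rb (older minus young), -0.14 for X68782cds_at in older minus adult and again at 4 and 6 weeks, and -0.057 for rc_AA801174_at in the change with time. With all 18 arrays, older minus adult was 0.056 for Cd72 and 0.32 for rc_AA801174_at. Leaving out 1 array gave older minus young of -0.13 to 0.22 for Il2rb, older minus adult of -0.24 to 0.17 for X68782cds_at and -0.40 to 0.15 for rc_AA801174_at, and older minus young at 4 and 6 weeks of -0.47 to 0.68 for X68782cds_at and -0.95 to 0.43 for Il2rb. For the change of the age difference it gave -0.88 to 0.059 for Cd72, -0.67 to 0.17 for Cd79b, -0.84 to 0.69 for rc_AA801174_at, and -1.12 to 0.25 for Il2rb. In all, 538 values of age differences under the alternatives kept direction and side of the threshold, 32 reversed, and 5 were newly called, all of Cd72. No paired analysis was possible because each age and time has 1 array, all with the same replicate number, so that numbers pair no samples; the age comparisons match arrays by time and the time comparisons by age through the terms of the model.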
